A study of Mus musculus with 4 samples.

Results

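The antiviral interferon-stimulated genes are a set of 39 genes that cells switch on when interferon reaches them. Their probe sets were chosen by name: every probe set whose platform annotation gave 1 of these gene symbols alone was taken, on all 4 arrays. That gave 67 probe sets for 37 genes, out of 34945 probe sets for 18193 genes on the array. Isg15 and Ifi44 had no such probe set and are not described further. No measured value entered the choice, but the list was drawn up with earlier results of these arrays known.

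The study asked how STAT4 and STAT6, which carry the signals of interleukin-12 and interleukin-4, shape helper T cells. Sorted naive CD4+ T cells from mouse spleen and lymph nodes were put through a 7-day culture and measured on Affymetrix mouse expression arrays, with 1 array in each of 4 groups. The first group was STAT6-deficient cells (genotype label B6.129S2©-STAT6<tm1Gru>/J) in Th2 culture, and the second was wild type C57BL/6J cells in Th2 culture. The third was STAT4-deficient cells (label C57BL6-STAT4<tm1>) in Th1 culture, and the fourth was wild type C57BL/6J cells in Th1 culture. All 4 cultures were activated through CD3 and CD28 for 3 days, followed by 4 days with interleukin-2 (50 U/ml). The Th2 cultures also had interleukin-4 at 10 ng/ml throughout, with an antibody against interferon gamma in the first 3 days. The Th1 cultures had interleukin-12 at 20 ng/ml with an antibody against interleukin-4 in the first 3 days, and interleukin-12 at 10 ng/ml after that. A restimulation of 2 h through the same receptors, with the polarizing cytokine, came before harvest. Both labels name targeted alleles with no Cre or promoter, and the 2 wild type arrays carry separate titles as STAT4 and STAT6 controls. The age of the mice and whether cells of several mice were pooled are not stated in the sources used here.

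Type I interferons bind a receptor made of IFNAR1 and IFNAR2, whose kinases are JAK1 and TYK2. Their signal assembles the complex ISGF3, which holds STAT2 and IRF9 and binds the interferon-stimulated response element (ISRE) in front of antiviral genes. Interferon gamma, the Th1 cytokine, acts mainly on a different element, and reaches part of the same gene set. The products of these genes sense viral RNA, block its translation, break it down or starve the virus of nucleotides, and some of them feed back on the interferon signal. STAT4 and STAT6 are not parts of ISGF3.

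Values are log2 expression levels, so a difference of 1 is 2-fold. Each gene stands for its brightest probe set, the one with the highest mean over the 4 arrays. A gene was called higher or lower where its level differed 2-fold or more and the brighter array reached the median of all probe sets, 5.82. No group had a replicate, so there is no spread and no test, and each difference describes these 4 arrays and not the variation between mice or cultures. In place of an error, the scatter of probe sets that read the same gene was computed over all genes. Its SD was 0.65 log2 units for STAT6 loss (STAT6-deficient minus wild type Th2), 0.51 for STAT4 loss (STAT4-deficient minus wild type Th1) and 0.73 for wild type Th1 minus wild type Th2. It covers probe behaviour only.

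The arrays differed in ways that touch every value below. The beta-actin control read 2.08 log2 units higher at its 3′ than at its 5′ end on the STAT6-deficient array, against 0.85 in wild type Th2, 0.66 in STAT4-deficient Th1 and 0.32 in wild type Th1 cells. The Gapdh control read 0.77 higher at its 3′ end on the STAT6-deficient array. Its values were −0.0007 in wild type Th2, 0.17 in STAT4-deficient Th1 and −0.16 in wild type Th1 cells. The part of these differences in the results was not tested. The median gene shifted by −0.19 in STAT6 loss, 0.17 in STAT4 loss and −0.10 between the wild types. Of the helper T cell markers measured, Cd3d, Cd3e, Cd3g, Cd4 and Cd28, all 5 were above the level minimum on all 4 arrays. Stat4 read 9.90 in STAT6-deficient Th2 against 8.96 in wild type Th2 cells, and 9.20 in STAT4-deficient Th1 against 11.45 in wild type Th1 cells. Stat6 read 10.92 in STAT6-deficient Th2 against 10.93 in wild type Th2 cells, and 11.67 in STAT4-deficient Th1 against 11.17 in wild type Th1 cells. This brightest Stat6 probe set thus shows no drop in STAT6-deficient cells. The other Stat6 probe set differed by −0.53 in STAT6 loss, less than 2-fold. Where the probes of either lie relative to the deleted exons is not given in the sources used here. Probes beyond those exons cannot check the label.

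Without STAT6, Th2 cells had the antiviral genes far above wild type. Of the 37 genes 35 were called higher (94.6%) and none lower, where 4.43% of all genes were called higher and 12.3% lower. The other 2, Stat2 and Ifi35, were also above wild type, by 0.61 and 0.97 log2 units, so the difference was positive for 37 of 37 genes, as it was for 37.8% of all genes. The median difference was 2.66 log2 units, or 6.32-fold, with an SD between genes of 1.62; the median over all genes was −0.19. Relative to that shift the median was 2.85, and it was 2.85 to 2.95 under the 4 other scalings. In 21 of the 37 genes the difference was at least 4-fold, a size that 1.19% of all genes reached with the same level minimum. Oasl2 and Ifit3 ranked 1 and 2 of all 18193 genes in this difference, and 11 of the 50 called genes furthest above wild type were members. Oasl2 was under the level minimum in wild type Th2 cells, so the size of its difference and its rank are not exact. In bulk RNA a larger share of responding cells and more RNA per cell cannot be told apart.

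**Figure D1:**
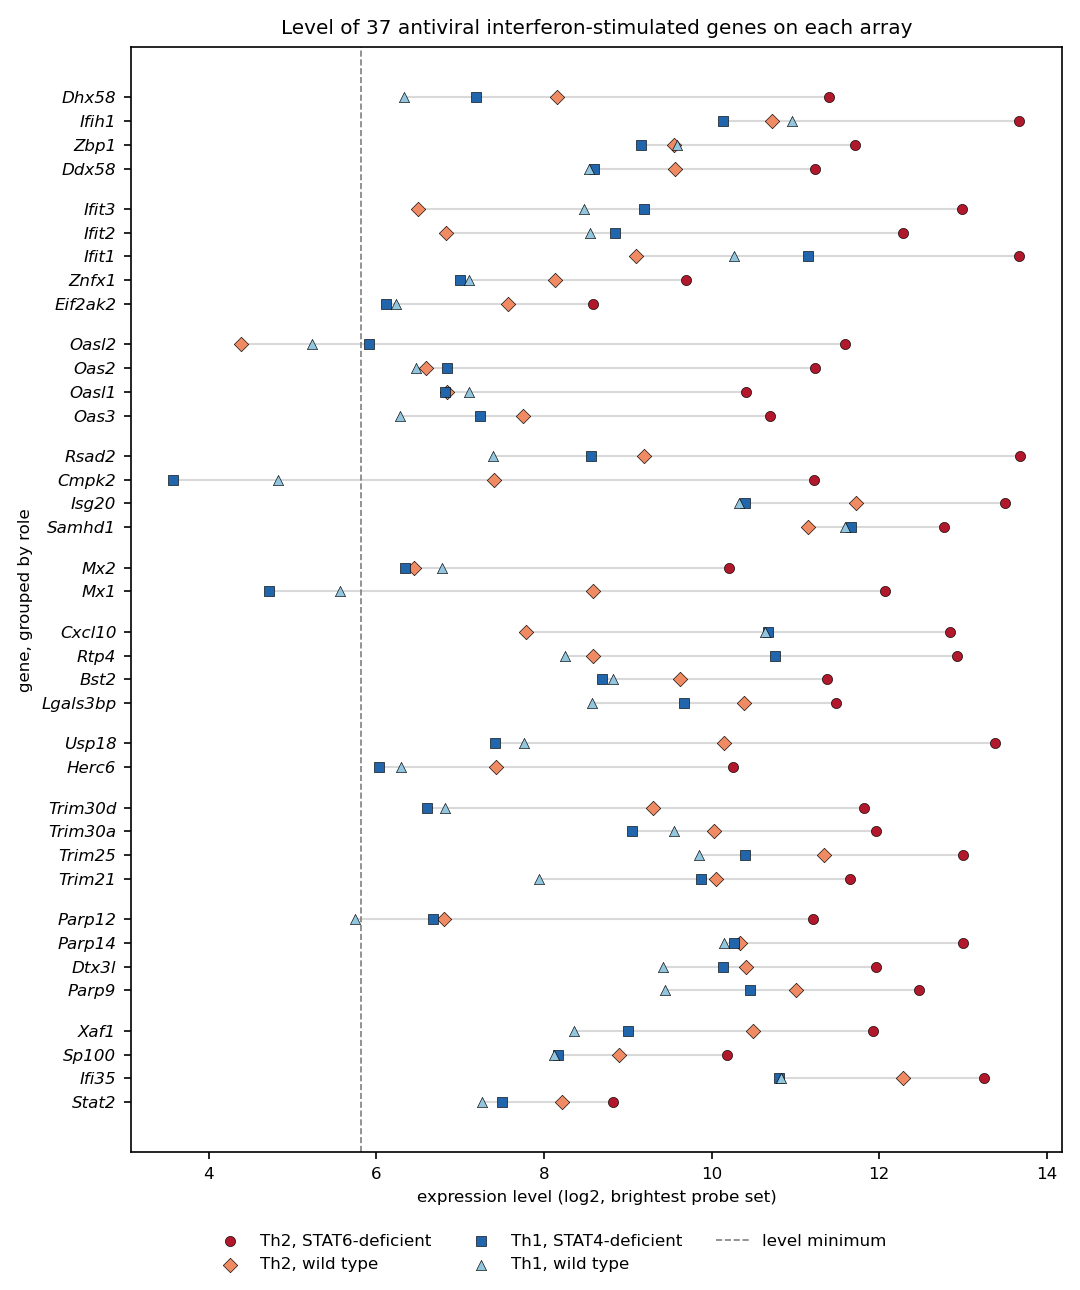
Level of each antiviral gene (log2, brightest probe set) on the 4 arrays, with genes grouped by role and the level minimum of 5.82 as a dashed line. The STAT6-deficient Th2 array, in red, is the rightmost point for all 37 genes, while the order of the other 3 arrays changes from gene to gene.

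The STAT6-deficient array was the highest of the 4 for 37 of 37 genes, as it was for 16% of all genes. It led the next array by a median of 2.17 log2 units, from 0.61 for Stat2 to 5.67 for Oasl2, and by less than 2-fold for Stat2 and Ifi35. The next array was wild type Th2 for 25 genes, STAT4-deficient Th1 for 8 and wild type Th1 for 4. The median level of the 37 genes was 11.82 in STAT6-deficient Th2, 9.10 in wild type Th2, 8.69 in STAT4-deficient Th1 and 8.25 in wild type Th1 cells. All 37 reached the level minimum on the STAT6-deficient array, against 36 on wild type Th2, 35 on STAT4-deficient Th1 and 33 on wild type Th1.

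Promoters were read for the letters of the ISRE, because ISGF3 and the IRF factors bind this element. The members were listed as interferon-stimulated genes, so a high share follows from the list and is no result of these arrays. The core searched was 2 GAAA half-sites with any 2 bases between them, on either strand, in windows from 250 bases before to 50 bases after each start site. The windows come from RefSeq, build GRCm38.p6, whose table held 28 of the 37 genes. Of these 28, 13 (46.4%) held the core in at least 1 window, against 3.99% of all 27025 genes in the table. With a C required after the second half-site the counts were 10 of 28 (35.7%) and 0.944%. The letters TTC and GAA with 3 bases between them, the form many STAT dimers bind, were in 6 of 28 (21.4%) and 9.55% of all genes. With 4 bases between them, the spacing STAT6 prefers, they were in 4 of 28 (14.3%) and 8.01%. The 5 promoters below belong to the genes with the largest STAT6 loss among those that hold the core, and capitals mark the core.

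Ifit3, chr19:34583279-34583578, plus strand: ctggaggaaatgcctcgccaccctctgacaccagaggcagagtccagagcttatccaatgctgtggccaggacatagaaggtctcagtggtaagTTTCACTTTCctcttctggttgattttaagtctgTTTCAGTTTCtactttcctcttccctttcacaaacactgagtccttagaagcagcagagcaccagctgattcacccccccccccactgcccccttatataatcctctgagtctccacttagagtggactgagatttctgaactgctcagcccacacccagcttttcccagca

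Cxcl10, chr5:92348840-92349139, minus strand: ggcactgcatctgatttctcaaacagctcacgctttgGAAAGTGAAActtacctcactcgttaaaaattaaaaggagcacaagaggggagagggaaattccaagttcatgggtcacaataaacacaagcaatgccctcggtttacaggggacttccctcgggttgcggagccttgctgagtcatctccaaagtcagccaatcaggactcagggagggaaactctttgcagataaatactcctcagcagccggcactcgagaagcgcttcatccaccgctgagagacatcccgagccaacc

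Ifit1, chr19:34640639-34640938, plus strand: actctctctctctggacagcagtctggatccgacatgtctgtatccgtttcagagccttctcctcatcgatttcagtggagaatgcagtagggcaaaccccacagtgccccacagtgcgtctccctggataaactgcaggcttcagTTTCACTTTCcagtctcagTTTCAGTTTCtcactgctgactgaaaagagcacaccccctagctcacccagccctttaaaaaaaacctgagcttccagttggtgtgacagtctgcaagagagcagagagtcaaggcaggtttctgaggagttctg

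Rsad2, chr12:26456403-26456702, minus strand: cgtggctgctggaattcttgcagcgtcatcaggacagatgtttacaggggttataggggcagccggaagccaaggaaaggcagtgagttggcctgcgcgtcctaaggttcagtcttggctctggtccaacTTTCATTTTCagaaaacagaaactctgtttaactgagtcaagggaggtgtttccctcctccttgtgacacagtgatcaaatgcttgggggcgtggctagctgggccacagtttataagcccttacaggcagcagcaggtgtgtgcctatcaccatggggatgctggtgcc

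Oas3, chr5:120777610-120777909, minus strand: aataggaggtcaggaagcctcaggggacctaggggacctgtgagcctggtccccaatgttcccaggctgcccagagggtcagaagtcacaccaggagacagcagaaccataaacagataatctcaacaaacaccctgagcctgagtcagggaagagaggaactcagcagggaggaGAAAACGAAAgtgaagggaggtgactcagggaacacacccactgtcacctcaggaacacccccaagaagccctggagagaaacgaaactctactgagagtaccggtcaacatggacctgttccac

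Counted from the start site, Ifit3 held cores at −156 to −147 and −122 to −113, and Ifit1 at −104 to −95 and −85 to −76. The single cores lay at −120 to −111 in Rsad2, −75 to −66 in Oas3 and −213 to −204 in Cxcl10. The other genes with the core were Ifih1, Ddx58, Bst2, Trim30a, Trim30d, Eif2ak2, Stat2 and Trim21. In Bst2 and Trim21 the 2 cores found overlap each other, and in Bst2 the first also overlaps a match to TTC and GAA with 3 bases between them. The 13 genes with the core had a median STAT6 loss difference of 2.52 (0.61 to 6.48), against 1.66 (0.97 to 7.21) for the 15 genes whose windows lacked it. The 9 genes with no window to search had the highest median, 3.25 (1.46 to 4.64). Oasl2 and Ifit2, with 2 of the 3 largest differences, were among the 15. A match is a description of letters, and a window without it says only that these letters are not in it.

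The RNA and DNA sensors were higher in all 4 measured genes without STAT6. Ifih1 encodes MDA5, which recognizes long double-stranded RNA, and read 13.67 in STAT6-deficient Th2 against 10.72 in wild type Th2 cells, and 10.14 in STAT4-deficient Th1 against 10.96 in wild type Th1 cells. Dhx58 encodes LGP2, which assists MDA5, and read 11.40 in STAT6-deficient Th2, 8.15 in wild type Th2, 7.18 in STAT4-deficient Th1 and 6.33 in wild type Th1 cells. Ddx58 encodes RIG-I, the sensor of RNA with a 5′ triphosphate, and read 11.24 without STAT6 against 9.57 in wild type Th2 cells, and 8.59 without STAT4 against 8.54 in wild type Th1 cells. On all 3 genes the STAT6-deficient array was the highest, and it stood 2.94, 3.25 and 1.67 log2 units over wild type Th2. For Ifih1 the next array was wild type Th1, 2.71 below it. The level of Zbp1, whose product senses nucleic acids in the Z form and can trigger cell death, was 11.71 in STAT6-deficient Th2, 9.56 in wild type Th2, 9.16 in STAT4-deficient Th1 and 9.58 in wild type Th1 cells. The other 3 arrays lay close together for Zbp1, within 0.5 of each other. Dhx58 had 2 dimmer probe sets, both below the level minimum on every array, that differed by only 1.06 and 1.15 in STAT6 loss.

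The Ifit proteins bind viral RNA that lacks the host's cap marks and block its translation. Ifit3 read 12.98 in STAT6-deficient Th2 against 6.50 in wild type Th2 cells, and 9.19 in STAT4-deficient Th1 against 8.48 in wild type Th1 cells. Its neighbour Ifit2 read 12.28 in STAT6-deficient Th2, 6.83 in wild type Th2, 8.85 in STAT4-deficient Th1 and 8.55 in wild type Th1 cells. Ifit1, with 3 other coding genes between it and Ifit3 on chromosome 19, read 13.66 without STAT6 against 9.10 in wild type Th2 cells, and 11.14 without STAT4 against 10.27 in wild type Th1 cells. All 3 shared 1 order of the arrays, with STAT6-deficient Th2 highest and wild type Th2 lowest, and the 2 Th1 arrays between them. They were 89.5-fold, 43.9-fold and 23.7-fold above wild type in STAT6 loss. Eif2ak2, which encodes the kinase PKR that shuts down translation on sensing double-stranded RNA, moved far less and read 8.58 in STAT6-deficient Th2 against 7.57 in wild type Th2 cells, and 6.12 in STAT4-deficient Th1 against 6.24 in wild type Th1 cells. Its difference of 1.01 is at the 2-fold limit, and its other 2 probe sets differed by 1.48 and 1.88. Znfx1, an RNA helicase-like sensor of viral RNA, read 9.69 in STAT6-deficient Th2, 8.13 in wild type Th2, 7.00 in STAT4-deficient Th1 and 7.10 in wild type Th1 cells. Both genes had the 2 Th2 arrays above the 2 Th1 arrays.

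OAS enzymes make 2′-5′-linked oligoadenylate on meeting double-stranded RNA, which activates RNase L to cut RNA. Oas2 read 11.23 in STAT6-deficient Th2 against 6.59 in wild type Th2 cells, and 6.84 in STAT4-deficient Th1 against 6.47 in wild type Th1 cells. Oas3 read 10.70 in STAT6-deficient Th2, 7.75 in wild type Th2, 7.24 in STAT4-deficient Th1 and 6.28 in wild type Th1 cells. In both the STAT6-deficient array stood at least 2.95 log2 units above wild type Th2, and Oas2 was within 0.4 on the other 3 arrays. The OAS-like gene Oasl2 was below the level minimum in both wild types and read 11.59 without STAT6 against 4.38 in wild type Th2 cells, and 5.92 without STAT4 against 5.24 in wild type Th1 cells. Oasl1, whose mouse product is known to restrain translation of Irf7, read 10.42 in STAT6-deficient Th2 against 6.84 in wild type Th2 cells, and 6.83 in STAT4-deficient Th1 against 7.10 in wild type Th1 cells. The pairs Oas2 and Oas3, and Oasl1 and Oasl2, are direct neighbours on chromosome 5. Within each pair the STAT6 loss difference varied widely, 4.64 against 2.95 and 7.21 against 3.58.

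Enzymes that act on nucleotides and nucleic acids followed. Rsad2 encodes viperin, which makes a chain-terminating nucleotide, and read 13.68 in STAT6-deficient Th2 against 9.19 in wild type Th2 cells, and 8.56 in STAT4-deficient Th1 against 7.40 in wild type Th1 cells. Cmpk2, its direct neighbour on chromosome 12, encodes a nucleotide kinase and read 11.22 in STAT6-deficient Th2, 7.41 in wild type Th2, 3.58 in STAT4-deficient Th1 and 4.83 in wild type Th1 cells. Both were highest in STAT6-deficient and second in wild type Th2 cells, but Cmpk2 lay below the level minimum in both Th1 arrays. The dimmer Cmpk2 probe set differed by 1.71 in STAT6 loss, against 3.81 for the brighter one. Isg20, an exonuclease for single-stranded RNA, was bright in every array, at 13.50 in STAT6-deficient Th2, 11.72 in wild type Th2, 10.40 in STAT4-deficient Th1 and 10.32 in wild type Th1 cells. Samhd1, which depletes the deoxynucleotides that viruses need, was bright as well, at 12.77 without STAT6 against 11.15 in wild type Th2 cells, and 11.66 without STAT4 against 11.59 in wild type Th1 cells. On the brightest Samhd1 probe set wild type Th2 cells had the lowest level, below both Th1 arrays. This did not hold on every Samhd1 probe set. Its 5 probe sets, from the brightest to the dimmest, differed by 1.62, 1.92, 0.41, 3.14 and 0.00 in STAT6 loss.

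The Mx genes encode dynamin-like GTPases that block incoming viruses, and both are annotated as transcribed pseudogenes on chromosome 16 in RefSeq, whose assembly is of the C57BL/6J strain. Each had 1 probe set. Mx1 read 12.07 in STAT6-deficient Th2 against 8.59 in wild type Th2 cells, and 4.72 in STAT4-deficient Th1 against 5.57 in wild type Th1 cells. Mx2 read 10.21 in STAT6-deficient Th2, 6.45 in wild type Th2, 6.35 in STAT4-deficient Th1 and 6.79 in wild type Th1 cells. Mx1 separated the culture conditions as well as the genotypes, with both Th1 arrays below the level minimum, whereas Mx2 was within 0.5 on the 3 arrays other than STAT6-deficient Th2.

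Isg15 itself was not measured, but 2 genes that handle its conjugates were. Usp18 removes ISG15 from proteins and dampens interferon receptor signalling, and read 13.38 in STAT6-deficient Th2 against 10.14 in wild type Th2 cells, and 7.41 in STAT4-deficient Th1 against 7.77 in wild type Th1 cells. Herc6 is the main ISG15 ligase in mouse and read 10.25 in STAT6-deficient Th2, 7.43 in wild type Th2, 6.03 in STAT4-deficient Th1 and 6.30 in wild type Th1 cells. Both ran in the same order, STAT6-deficient Th2, wild type Th2, wild type Th1 and STAT4-deficient Th1, with the last 2 within 0.4. The 4 Herc6 probe sets differed by 2.82, 3.10, 1.5 and 0.68 in STAT6 loss.

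The TRIM ubiquitin ligases were higher by less, with a median of 1.79 over 4 genes. Trim25, known for modifying RIG-I, read 13.00 in STAT6-deficient Th2 against 11.34 in wild type Th2 cells, and 10.40 in STAT4-deficient Th1 against 9.85 in wild type Th1 cells. Trim21, a receptor for antibody inside the cell, read 11.65 in STAT6-deficient Th2, 10.05 in wild type Th2, 9.87 in STAT4-deficient Th1 and 7.95 in wild type Th1 cells. Trim30a, which in mouse restrains inflammatory signalling, read 11.97 without STAT6 against 10.03 in wild type Th2 cells, and 9.05 without STAT4 against 9.55 in wild type Th1 cells. Trim30d, beside it on chromosome 7, read 11.82 in STAT6-deficient Th2 against 9.30 in wild type Th2 cells, and 6.61 in STAT4-deficient Th1 against 6.82 in wild type Th1 cells. The STAT6-deficient array was highest for each, and Trim21 differed from the rest in that STAT4-deficient Th1 and wild type Th2 cells stood within 0.2. Trim30a and Trim30d are close paralogs, so their signals may not be fully separate. The brightest Trim25 and Ifi35 probe sets carry the suffix s_at, which marks probes that may match transcripts of more than 1 gene.

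Parp9, Parp14 and Dtx3l lie side by side on chromosome 16, and their products act together: PARP9 partners the ubiquitin ligase DTX3L, and PARP14 modifies proteins with ADP-ribose. Parp9 read 12.47 in STAT6-deficient Th2 against 11.01 in wild type Th2 cells, and 10.46 in STAT4-deficient Th1 against 9.44 in wild type Th1 cells. Dtx3l read 11.96 in STAT6-deficient Th2, 10.41 in wild type Th2, 10.14 in STAT4-deficient Th1 and 9.42 in wild type Th1 cells. Parp14 read 12.99 without STAT6 against 10.33 in wild type Th2 cells, and 10.27 without STAT4 against 10.15 in wild type Th1 cells. The neighbours Parp9 and Dtx3l differed by nearly the same amount in STAT6 loss, 1.46 and 1.55, and Parp14 by 2.66. A second Dtx3l probe set ran the other way, at 8.32 in STAT6-deficient and 9.10 in wild type Th2 cells. It was the only 1 of the 67 probe sets below wild type. Parp12, which binds RNA and blocks translation, read 11.20 in STAT6-deficient Th2 against 6.80 in wild type Th2 cells, and 6.68 in STAT4-deficient Th1 against 5.74 in wild type Th1 cells, and its 21.1-fold difference was the largest of the 4.

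Among products of the membrane or the cell's surroundings, Cxcl10 had the largest STAT6 loss difference after Oasl2, Ifit3 and Ifit2. Cxcl10, the chemokine that draws CXCR3-bearing cells, read 12.84 in STAT6-deficient Th2 against 7.79 in wild type Th2 cells, and 10.67 in STAT4-deficient Th1 against 10.64 in wild type Th1 cells. Rtp4, which encodes a receptor-transporting protein, read 12.92 in STAT6-deficient Th2, 8.59 in wild type Th2, 10.75 in STAT4-deficient Th1 and 8.25 in wild type Th1 cells. Cxcl10 had its lowest level in wild type Th2 cells, while Rtp4 was low in both wild types and raised in both deficient arrays. Bst2 encodes tetherin, which holds budding virions on the cell, and read 11.37 without STAT6 against 9.63 in wild type Th2 cells, and 8.69 without STAT4 against 8.82 in wild type Th1 cells. Lgals3bp, a secreted glycoprotein, read 11.48 in STAT6-deficient Th2 against 10.38 in wild type Th2 cells, and 9.68 in STAT4-deficient Th1 against 8.57 in wild type Th1 cells. For both the 2 Th2 arrays were above the 2 Th1 arrays.

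Genes of transcription and cell death moved least. Stat2, an ISGF3 subunit, read 8.82 in STAT6-deficient Th2 against 8.21 in wild type Th2 cells, and 7.50 in STAT4-deficient Th1 against 7.26 in wild type Th1 cells. Ifi35, a leucine zipper protein, read 13.25 in STAT6-deficient Th2, 12.28 in wild type Th2, 10.81 in STAT4-deficient Th1 and 10.83 in wild type Th1 cells. Sp100, a nuclear body protein, read 10.18 without STAT6 against 8.89 in wild type Th2 cells, and 8.16 without STAT4 against 8.12 in wild type Th1 cells. Xaf1, a promoter of cell death, read 11.92 in STAT6-deficient Th2 against 10.49 in wild type Th2 cells, and 9.01 in STAT4-deficient Th1 against 8.36 in wild type Th1 cells. All 4 were ordered with STAT6-deficient Th2 first and wild type Th2 second, and their median STAT6 loss was 1.13. The dimmer Xaf1 probe set differed by 3.32, against 1.43 for the brighter one. Stat2 lies on chromosome 10 with 26 coding genes between it and Stat6. Of the 25 measured coding genes from Stat6 to Stat2, none was called higher and 2 lower, against 4.43% and 12.3% of all genes.

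**Figure D2:**
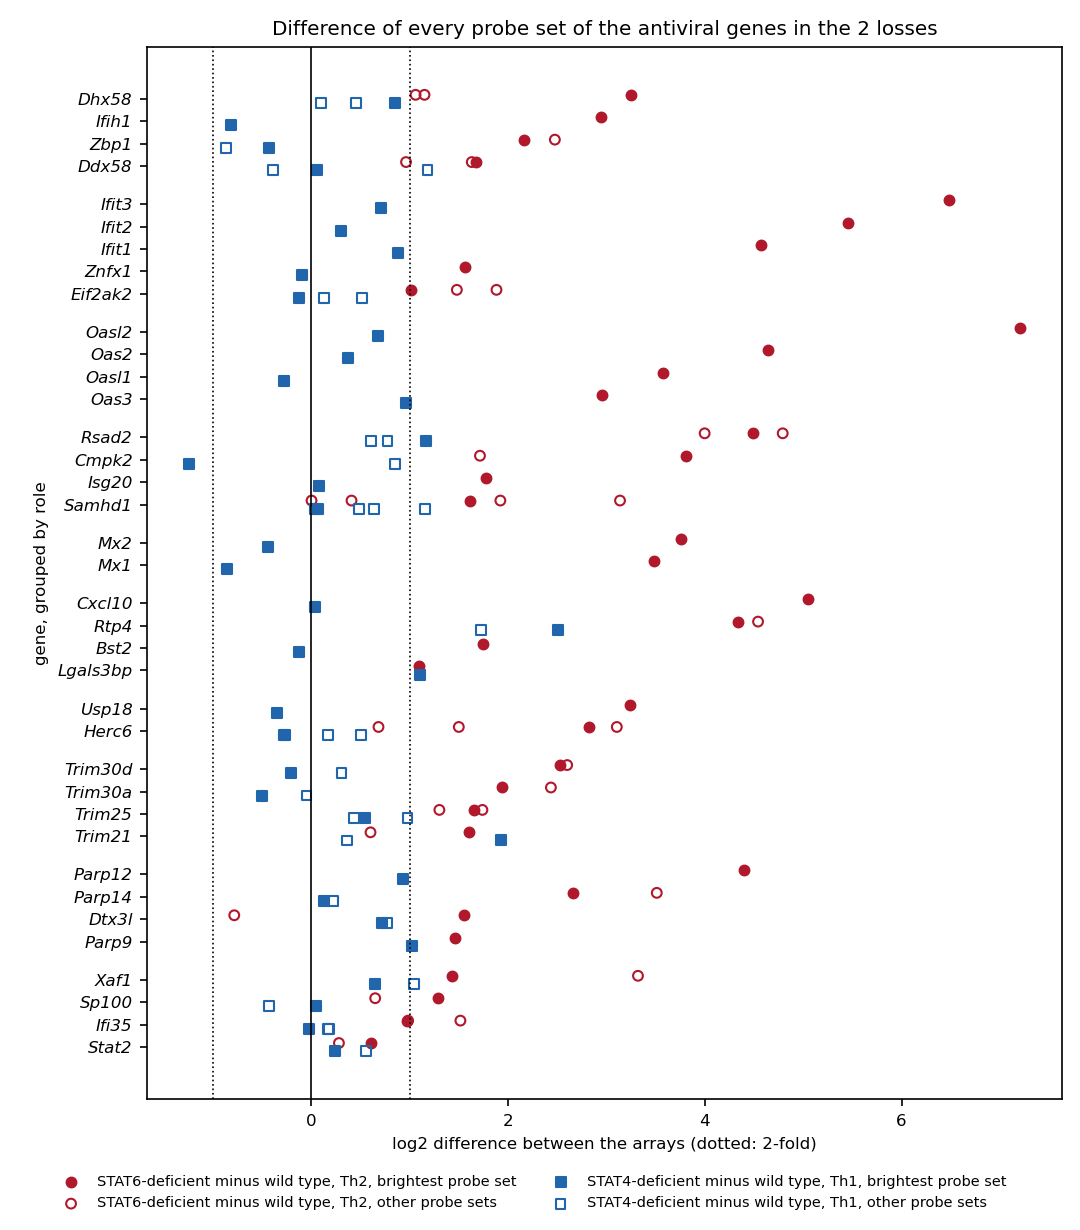
Log2 difference of each of the 67 probe sets in STAT6 loss (red circles) and STAT4 loss (blue squares), with the brightest probe set of a gene filled and the others open. In STAT6 loss 66 of 67 lie right of 0 and 56 at or beyond the 2-fold line on the right, while the STAT4 loss points gather around 0.

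Probe sets of 1 gene mostly lay on the same side in STAT6 loss. Of the 19 genes with several, 18 had all of them above wild type, the exception being Dtx3l, and 11 had all of them at least 2-fold above. In 6 of the 19 the probe sets lay more than 1 log2 unit apart, and over all members the scatter SD was 0.87. The 18 genes with 1 probe set, among them Oasl2, Ifit1, Ifit2, Ifit3, Oas2, Mx1 and Cxcl10, have no such check.

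STAT4 loss in Th1 cells moved few of these genes. Of the 37, 5 were called higher (13.5%) and none lower, against 4.28% and 3.7% of all genes. The difference was positive for 23 and negative for 14, and 62% of all genes were positive. The median was 0.07 log2 units, beside 0.17 for all genes. Relative to all genes the median was −0.09 in the deposited values, after median centring and with the hybridization controls, 0.20 after quantile normalization and 0.24 after cyclic loess, so its direction depends on the scaling. The 5 genes were Rtp4 (2.50), Trim21 (1.93), Rsad2 (1.17), Lgals3bp (1.11) and Parp9 (1.02), all of which were also called higher in STAT6 loss. Rtp4 and Trim21 kept their calls under the 4 other scalings, and the other 3 lost theirs after median centring, which left 2 genes higher and 1, Ifih1, lower. The second Rtp4 probe set differed by 1.73 and the second Trim21 probe set by 0.36. Dimmer probe sets also went past 1 log2 unit in Ddx58 (1.18), Samhd1 (1.15) and Xaf1 (1.05), whose brightest ones differed by 0.05, 0.07 and 0.64. With arrays scaled to the spiked hybridization controls 13 genes (35.1%) were called higher, against 13.1% of all genes.

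**Figure D3:**
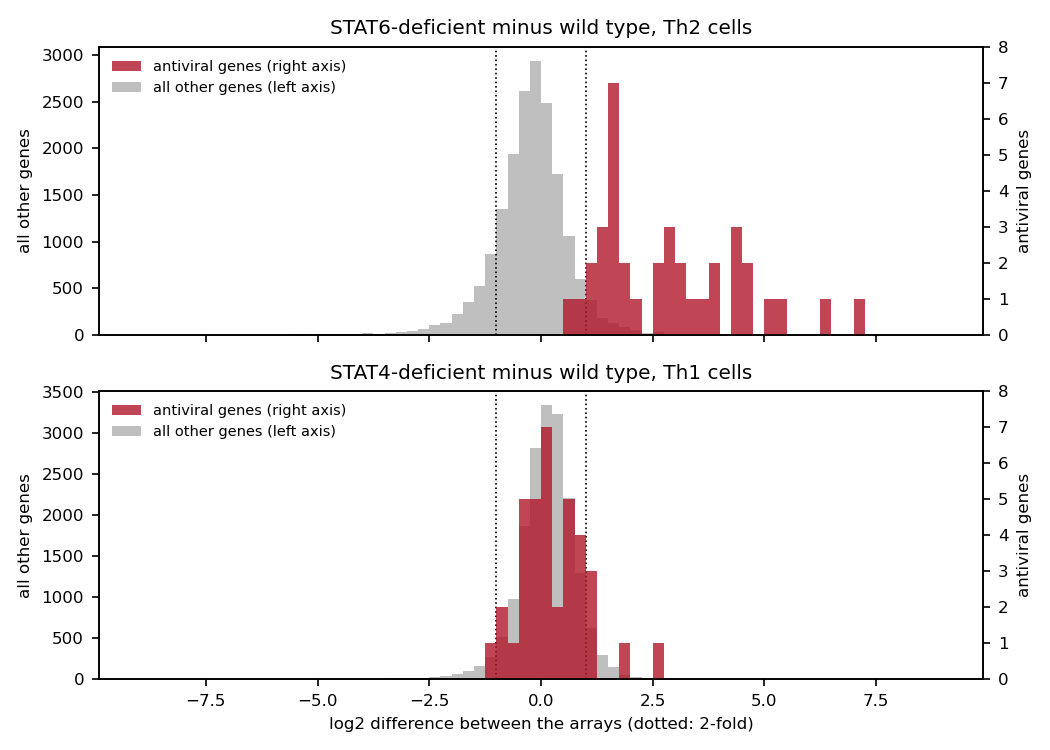
Number of genes by log2 difference in bins of 0.25, for STAT6 loss (upper panel) and STAT4 loss (lower panel), with the 37 antiviral genes in red on the right axis and the other 18156 genes in grey on the left axis. In STAT6 loss every antiviral gene lies right of 0.5. In STAT4 loss they lie from −1.25 to 2.50, and 32 of the 37 were not called. The other 5 (13.5%) were called higher, against 4.28% of all genes.

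The 2 losses share no array, so they can be set against each other gene by gene. The STAT6 loss difference exceeded the STAT4 loss difference for 35 of 37 genes, by a median of 2.44 log2 units, and by 2-fold or more for 30; the median over all genes was −0.37. The 2 exceptions were Trim21 (1.60 against 1.93) and Lgals3bp (1.10 against 1.11). Ifit3 had 6.48 against 0.71. Oasl2 had 7.21 against 0.68, but its levels in both wild types were under the minimum, so its differences are not exact. Across the 37 genes the 2 differences hardly ran together, with Pearson's r of 0.12 and Spearman's rho of 0.03, given as a description since genes of the same arrays are not independent. No test of this difference was possible with 1 array per group.

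Wild type cells differed by culture condition, and the set was divided. Of the 37 genes 19 (51.4%) were lower in Th1 than in Th2 cells and 4 (10.8%) were higher, against 16.9% and 5.42% of all genes. In all 27 differences were negative, as were 54.9% of those of all genes, and the median was −1.02 beside −0.10 for all genes. Both wild type arrays enter a loss comparison too, so these values are not independent of those above. The genes furthest lower in Th1 cells were Mx1 (−3.02), Cmpk2 (−2.58), Trim30d (−2.48), Usp18 (−2.38), Xaf1 (−2.12) and Trim21 (−2.11). Mx1 and Cmpk2 were under the level minimum in wild type Th1 cells, so their sizes and their place at the top are not exact. The 4 that were higher in Th1 cells were Cxcl10 (2.85), Ifit3 (1.98), Ifit2 (1.72) and Ifit1 (1.17). These 4 had a single probe set each, and Ifit1 lost its call with the hybridization controls. Oasl2 stood next to them (0.85) but was below the level minimum in both wild types. The count of genes lower in Th1 cells moved with the scaling, as did the share of all genes. It was 13 (35.1%, against 10.4% of all genes) under cyclic loess and 14 (37.8%, against 9.5%) when all arrays were given the same quantiles. It was 23 (62.2%, against 26.4%) when scaled to the spiked hybridization controls. In 9 of the 19 genes with several probe sets these lay more than 1 log2 unit apart, among them Eif2ak2 (from −2.96 to 0.21), Dhx58 (−1.82 to 0.21), Herc6 (−1.26 to 0.73) and Rsad2 (−1.79 to −0.17). The others were Samhd1 (−0.72 to 0.44), Cmpk2 (−2.58 and −0.92), Trim21 (−2.11 and −0.73), Xaf1 (−2.12 and −0.90) and Trim30d.

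**Figure D4:**
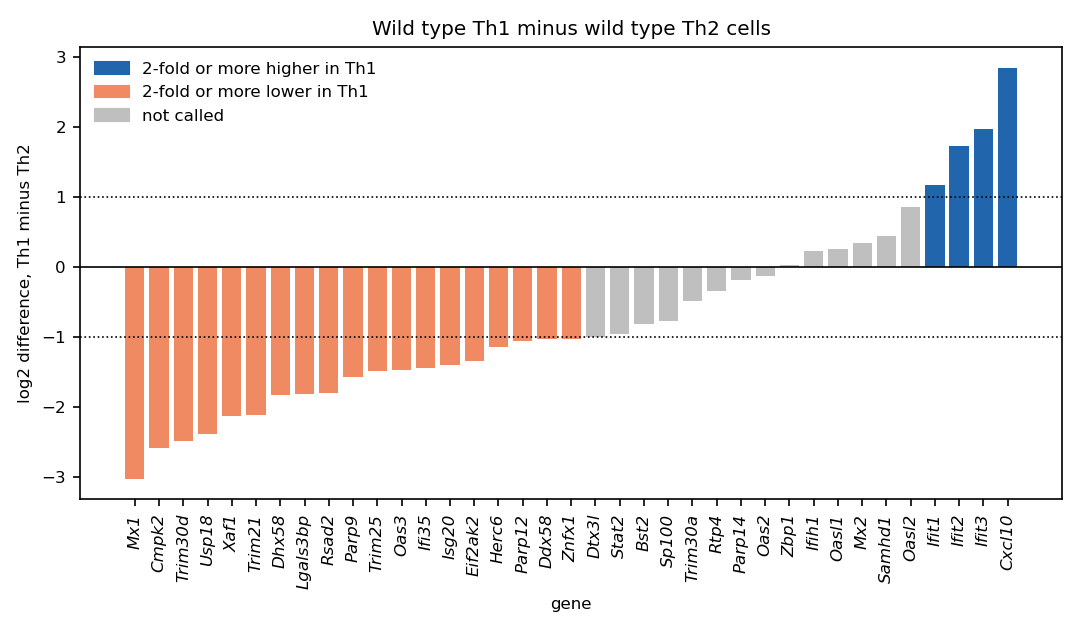
Log2 difference of each antiviral gene between wild type Th1 and wild type Th2 cells, with dotted lines at 2-fold and bars coloured by call. The 3 Ifit genes and Cxcl10 form the 4 bars above the upper line, and 19 genes lie below the lower one.

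Neighbouring genes thus did not always share a pattern between the wild types. Rsad2 and Cmpk2 were both lower in Th1 cells (−1.79 and −2.58), and the 3 Ifit genes were all higher. Trim30d differed by −2.48 and its neighbour Trim30a by −0.48; a dimmer Trim30d probe set differed by 0.23 and a dimmer Trim30a probe set by −1.16. Parp9 differed by −1.57, and Parp14 by −0.19. Oas3 differed by −1.47 and Oas2 by −0.12.

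Between the deficient cultures all 37 genes were called lower in STAT4-deficient Th1 than in STAT6-deficient Th2 cells (100%), where 7.09% of all genes were called lower and 8.71% higher. The median was −2.92 log2 units, beside 0.21 for all genes, and 32 of the genes were at least 4-fold lower, as were 1.34% of all genes. The count of 37 was 36 without Samhd1 under quantile, hybridization control and cyclic loess scaling (6.05%, 5.63% and 6.44% of all genes). It was 34 with the mean of all probe sets (4.86%) and 31 with the dimmest one (5.75%). The difference nearest to 0 was −1.11 for Samhd1. Cmpk2 (−7.64) and Mx1 (−7.35) stood furthest below, but both were under the level minimum in STAT4-deficient Th1 cells, so the sizes are not exact, and the other Cmpk2 probe set differed by −1.78. This comparison uses 1 array of each loss. Probe sets of 1 gene scattered with an SD of 1.51 over the members and 0.79 over all genes. In 9 of the 19 genes with several probe sets these lay more than 1 log2 unit apart. Among them were Dhx58 (−4.22 to −0.40), Herc6 (−4.22 to −0.60) and Eif2ak2 (−4.72 to −0.75). Of the 67 probe sets 65 were lower, the other 2 being the dimmer Dtx3l probe set (1.51) and a Samhd1 probe set (1.0).

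The rest of the interferon pathway was read from lists chosen with earlier results known. Of the 9 type I interferon genes measured, 6 were called higher in STAT6-deficient than in wild type Th2 cells, and none in STAT4 loss. Over all genes 4.43% were called higher in STAT6 loss and 4.28% in STAT4 loss. The interferon alpha genes are close copies of each other, so a probe set may read several of them. Ifnb1, interferon beta, read 8.89 in STAT6-deficient Th2 against 5.05 in wild type Th2 cells, and 5.41 in STAT4-deficient Th1 against 5.77 in wild type Th1 cells. Ifna4, an interferon alpha, read 10.01 in STAT6-deficient Th2, 5.72 in wild type Th2, 5.96 in STAT4-deficient Th1 and 6.20 in wild type Th1 cells. Both were above the level minimum only in the STAT6-deficient array, except that Ifna4 also reached it in both Th1 arrays by less than 0.4. Ifng read 10.20 without STAT6 against 8.18 in wild type Th2 cells, and 10.54 without STAT4 against 14.67 in wild type Th1 cells, highest in wild type Th1 cells and thus in a different order from the antiviral genes.

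No receptor or signal carrier of the 10 measured was called higher in STAT6 loss, and 2 were lower, where 12.3% of all genes were lower. The 2 are too few to be read as a result about the list. They were Ifngr2 (−2.74, with its other probe set at −1.61), a chain of the interferon gamma receptor, and Jak1 (−1.10, with probe sets from −2.02 to −0.81). Ifnar1 differed by −0.05, Ifnar2 by −0.61 (with a probe set at 0.76), Tyk2 by 0.23 and Irf9 by 0.15. Among the interferon regulatory factors 2 of 7 were higher, against 4.43% of all genes. Irf7, which drives interferon alpha genes, read 11.91 in STAT6-deficient Th2 against 9.39 in wild type Th2 cells, and 8.27 in STAT4-deficient Th1 against 7.95 in wild type Th1 cells. Irf8, a factor of myeloid and lymphoid cells, read 13.17 in STAT6-deficient Th2, 10.45 in wild type Th2, 13.04 in STAT4-deficient Th1 and 13.31 in wild type Th1 cells. Irf7 had the order that 15 of the 37 antiviral genes had. The brighter Irf8 probe set was within 0.3 in the 3 arrays other than wild type Th2. Its other probe set read 1.43 higher in STAT4-deficient Th1 than in STAT6-deficient Th2 cells.

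Of 11 sensing adaptors and kinases 3 were higher in STAT6 loss and 2 lower, against 4.43% and 12.3% of all genes. The 3 were Tlr7 (2.30), Ikbke (1.31) and Mb21d1, the DNA sensor cGAS (1.29). Tmem173, the adaptor STING (−1.19), and Myd88 (−1.08) were lower, too few to be read as a result about the list. Tlr7 and Ikbke were called higher in STAT4 loss as well (2.08 and 1.56), where 4.28% of all genes were higher. Of 5 negative regulators 2 were called lower in STAT6 loss, where 12.3% of all genes were lower. They were Socs1 (−2.12) and Socs3 (−2.61), both inhibitors of JAK signalling. Socs3 was lower in STAT4 loss too (−2.75, with probe sets up to −1.62). Usp18, the member that dampens interferon receptor signalling, was 3.24 higher in STAT6 loss.

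**Figure D5:**
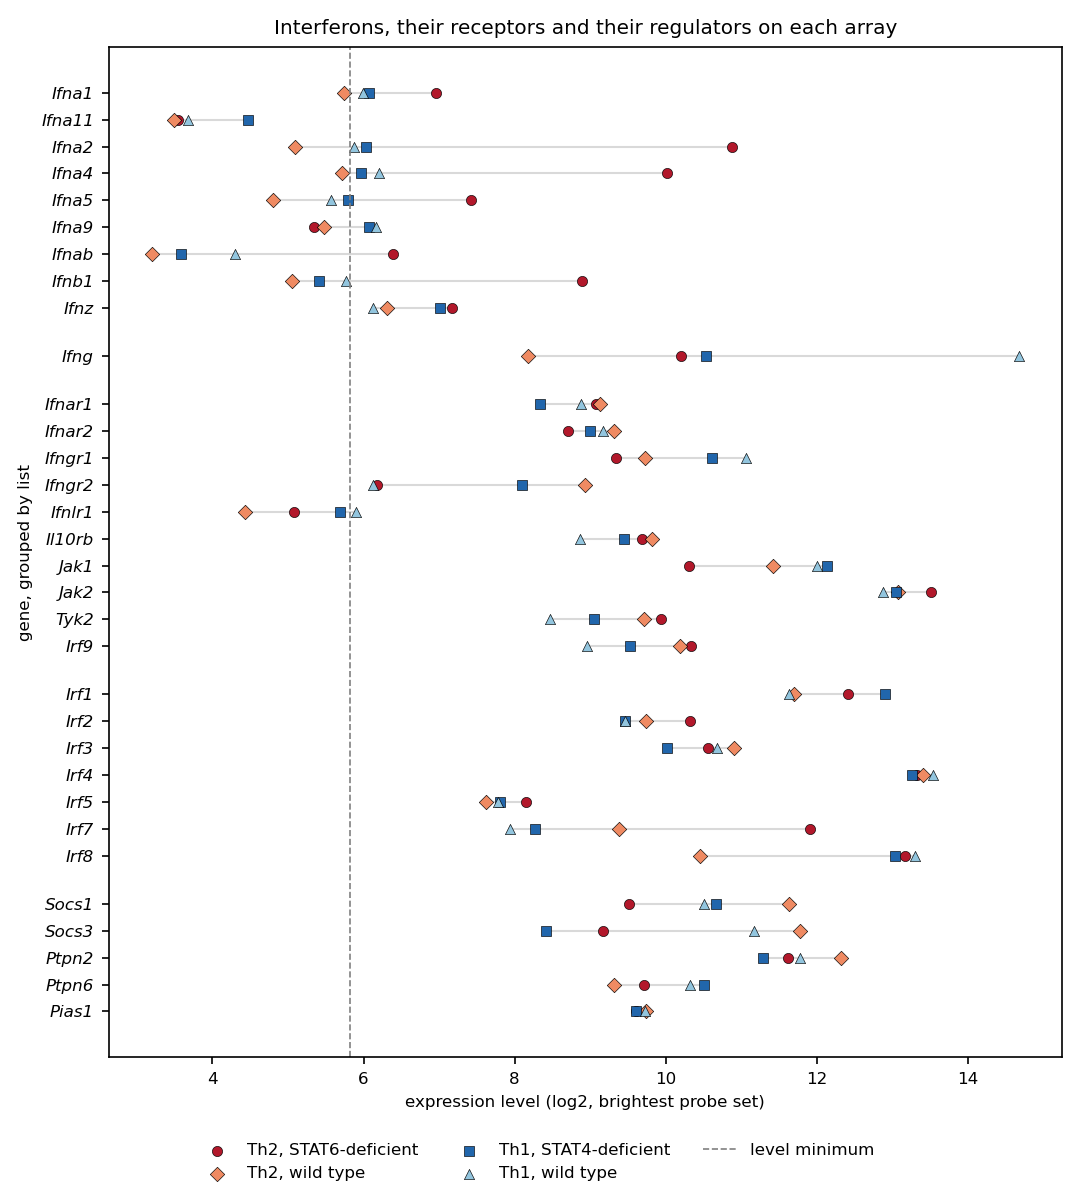
Level (log2, brightest probe set) of interferon genes, receptors and signal carriers, interferon regulatory factors and negative regulators on the 4 arrays, with the level minimum of 5.82 dashed. The red points of Ifna2, Ifna4, Ifna5, Ifnab and Ifnb1 stand apart to the right, and those of Ifnar1, Ifnar2, Tyk2 and Irf9 lie within 0.7 of wild type Th2.

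Markers of other cells that make or answer interferon were set beside these values. In STAT6 loss 4.43% of all genes were called higher and 12.3% lower. Of the 6 plasmacytoid dendritic cell markers only Bst2, itself a member, was called higher in STAT6 loss. Siglech, which defines these cells, read 5.58 in STAT6-deficient Th2 against 5.63 in wild type Th2 cells, and 6.27 in STAT4-deficient Th1 against 6.39 in wild type Th1 cells. The level minimum was reached by 3 of the 6 in STAT6-deficient and 3 in wild type Th2 cells. B cell markers had none called of 4, and their mean level was 4.95 in STAT6-deficient and 5.31 in wild type Th2 cells; none of the 4 reached the level minimum in STAT6-deficient cells. Myeloid and dendritic cell markers were lower in 3 of 7, with a mean of 5.19 in STAT6-deficient and 6.16 in wild type Th2 cells. Among the 3 NK cell markers Eomes was higher (1.09), and Ncr1 was below the level minimum on all 4 arrays. The part of these markers in the results was not tested.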

How the data were processed

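The authors deposited 1 log2 value for each probe set and array, made with RMA (robust multi-array average), per the submitters' processing notes, with no version given. The medians of the arrays differ, so joint quantile normalization is not evident. Each array held between 3295 and 3964 distinct values over 45037 probe sets, with a median step of 0.0331 to 0.0356 between levels of 4 and 6. Probe sets were named through GEO's platform annotation (34945 with 1 gene, 932 with several, 9160 with none) and symbols updated through RefSeq genes of GRCm38.p6. Control probe sets (64) were left out.

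Differences, calls and counts were computed in Python 3.11.15 with pandas 2.3.3, and the cyclic loess alternative with limma 3.58.1. Counts are over all 37 measured genes and, as background, all 18193. All 37 reached the level minimum in STAT6 loss and 35 in STAT4 loss. The call rule and the motif search were tested on simulated data. The members, the gene lists and the rule for named genes (all measured members with their values on all 4 arrays, and all probe sets where those of a gene lay over 1 log2 unit apart) were chosen with earlier results of these data known. The alternatives were other scalings, level minimums, folds and probe sets. No protein sequences were used here. Some list genes named beyond the called ones were chosen after their values were seen. With 1 array per group no p-value is given, and the number of arrays limits the precision.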

Additional observations from a re-analysis of the deposited data

Results flagged for a closer look

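In 3 genes the losses ran opposite ways by more than the disagreement between probe sets of 1 gene; with 1 array on each side the difference was not tested. Mx1 was 3.48 in STAT6 loss and −0.86 in STAT4 loss, with both Th1 arrays below the level minimum. Ifih1 was 2.94 in STAT6 loss and −0.82 in STAT4 loss, at levels above 10 on every array. Cmpk2 was 3.81 in STAT6 loss and −1.25 in STAT4 loss on its main probe set; its other probe set was 1.71 in STAT6 loss and 0.85 in STAT4 loss.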

How the results depend on the processing

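No paired analysis was possible because each group has 1 array. In STAT6 loss the count of genes called higher was 33 to 36 under the other scalings, 34 with the mean of all probe sets, 29 with the dimmest one and 21 at 4-fold (shares of all genes 3.69% to 6.51%, 3.41%, 3.83% and 1.19%); Stat2 was called only at 1.5-fold. The STAT6-deficient array was highest for all 37 genes under every scaling, and for 36 with the dimmest probe set. The STAT4 loss count of higher genes was 2 with median centring (1.97% of all genes), 13 with the hybridization controls (13.1%), 13 at 1.5-fold (13.3%), 1 at 4-fold (0.269%) and 2 with the dimmest probe set (3.63%). Its count of lower genes was 1 with median centring (Ifih1; 5.97% of all genes), 1 with no level minimum (Cmpk2; 4.05%) and 1 at 1.5-fold (Ifih1; 8.72%). Its median was −0.16 with median centring, which shifts all genes alike. Between the wild types 1 gene was higher (1.08% of all genes) and 6 were lower (4.03%) at 4-fold, and 12 were lower with the dimmest probe set (11.7%). Between the deficient cultures 1 gene, Dtx3l, was higher with the dimmest probe set (8.87%). Taken by its dimmest probe set, Dtx3l was −0.78 in STAT6 loss and 1.51 between the deficient cultures, and between the wild types Trim30d was 0.23 and Eif2ak2 0.21. The cause was not tested. The stricter ISRE core lowered the share of all genes to 0.944%. Matching by synonyms added 1 probe set and changed no count. The planned comparison of protein sequences was not run. Of the 148 differences of single genes, the 4 other scalings moved none by more than the probe-set SD; the mean of all probe sets moved 16, and the dimmest probe set moved 29 and reversed 4. Signals below about the level minimum give no secure order.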

Other observations

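The interferon-inducible GTPases, which attack the vacuoles of intracellular pathogens and answer interferon gamma strongly, were higher in STAT6 loss in 7 of 8 measured genes, with a median of 2.75. Of all genes 4.43% were called higher. Gbp2 read 13.05 in STAT6-deficient Th2 against 9.92 in wild type Th2 cells, and 11.92 in STAT4-deficient Th1 against 13.42 in wild type Th1 cells. Iigp1 read 11.00 in STAT6-deficient Th2, 6.47 in wild type Th2, 10.86 in STAT4-deficient Th1 and 9.53 in wild type Th1 cells. Unlike the 37 antiviral genes, Gbp2 had its highest level in wild type Th1 cells. In STAT4 loss 3 GTPase genes were higher and 2 lower, namely Gbp2 (−1.50) and Gbp3 (−1.35). Of all genes 4.28% were higher and 3.7% lower.

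Of 8 genes for MHC class I and the immunoproteasome 2 were higher in STAT6 loss, against 4.43% of all genes. They were the peptide transporter Tap1 (1.29, with probe sets from −0.03) and Nlrc5 (1.80), which encodes the activator of class I genes. B2m (−0.11), Tap2 (0.18), Psmb8 (−0.10) and Psmb9 (0.11) lay within 0.2 of wild type.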
